A study of Mus musculus with 6 samples.

Results

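Matricellular proteins are secreted into the extracellular matrix without building its fibres, and lysyl oxidases crosslink the collagen and elastin that do. The genes studied here were Thbs1, Thbs2 and Thbs4 (thrombospondins), Tnc (tenascin-C), Postn (periostin), Spp1 (osteopontin), Sparc, Fn1 (fibronectin), Lox and Loxl1, 10 non-collagen matrix genes chosen by name. A gene counted as measured when at least 1 row of the array's value table carried its symbol and no other. By that rule 9 of the 10 genes were measured, each by a single row, out of 19938 genes in 21789 tested rows. No row of the table given here named Spp1, which was not analysed here.

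Expression was profiled on Affymetrix Mouse Gene 1.0 ST arrays in the hearts of 6 male FVB mice, with 1 heart on each array. The first group was 3 A2a-R transgenic (TG) mice, in which the adenosine A2a receptor was over-expressed by a heart-specific, inducible transgene, and the second was their 3 wild-type (WT) littermates. Both groups had the same surgery: transverse aortic constriction (TAC), a surgical narrowing of the aorta against which the ventricle then pumps, at 8 weeks of age, with hearts taken 14 weeks later. The sources used here give neither the promoter nor the timing of induction nor the part of the heart sampled. Unoperated hearts were not analysed here, so an effect of the transgene and its interplay with the surgery cannot be told apart.

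In a pressure-loaded ventricle, fibroblasts are activated and deposit new matrix, and matricellular proteins, scarce in the resting adult heart, return with this repair. They bind cell-surface integrins, growth factors and collagen, and so tie the matrix to signalling in the cells around it. Crosslinking by lysyl oxidases, which follows hydroxylation of collagen inside the cell, makes the fibres stiffer and harder to degrade.

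Values are log2 expression values made by the authors with RMA, so a difference of 1 is a doubling; differences are TG minus WT. The array means lay between 7.03 and 7.06, and the correlation over tested rows was 0.9958 to 0.9973 between hearts within a genotype and 0.9926 to 0.9957 between genotypes, where rows are not independent replicates. The cardiomyocyte genes Myh6, Tnnt2 and Actc1 averaged 13.36, 14.01 and 14.28 in TG hearts and 13.42, 14.03 and 14.27 in WT hearts, each among the brightest rows of the table. Adora2a, the receptor gene itself, was not analysed here, so the genotype labels were not checked against it.

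Within the thrombospondin family the differences between genotypes ran in opposite directions. Thbs2 rose in the TG hearts, by 1.30-fold, whereas Thbs1 and Thbs4 had lower values there without passing the test, and Tnc, the tenascin, had higher values without passing. In limma, with p-values adjusted over all tested rows, 1 of the 9 measured genes passed an adjusted p of 0.05, against 0.959% of all tested rows (0.519% higher and 0.441% lower in TG). At an unadjusted p below 0.05 there were 4 of 9 genes, 2 higher and 2 lower, against 14.8% of all rows (6.27% higher, 8.51% lower). The same 4 genes were those whose TG and WT values did not overlap, which held for 20.3% of all rows (7.73% higher, 12.6% lower). The median difference of the 9 genes was -0.02, close to -0.01 over all tested rows.

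Thbs2 encodes thrombospondin-2, a secreted glycoprotein that modulates collagen fibril assembly and cell adhesion; mice without it are known to fare poorly under hypertensive load on the heart. The log2 values of Thbs2 were 9.01, 8.99 and 8.90 in TG hearts and 8.62, 8.57 and 8.59 in WT hearts. All 3 TG hearts stood above all 3 WT hearts, with a narrow spread in each group. The difference was 0.37 ± 0.06 (SE, n = 3 each), with a 95% interval of 0.24 to 0.51 and a limma adjusted p of 0.0278. The call was lost when any 1 of the 6 arrays was left out, with adjusted p of 0.0581 to 0.125 while the difference stayed between 0.35 and 0.41.

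Thbs1 encodes thrombospondin-1, which binds the receptors CD36 and CD47, restrains blood vessel growth and can activate latent TGF-beta. Thbs1 had log2 values of 8.38, 8.26 and 8.79 in TG hearts and 9.13, 8.96 and 9.08 in WT hearts. The 3 TG values lay below the 3 WT values, with TG replicate 3 nearest to them. The difference was -0.58 ± 0.13 (SE), 1.49-fold lower, with a 95% interval of -0.88 to -0.28, and it did not pass (limma adjusted p = 0.0957). Without TG replicate 3 the difference was -0.74 and the limma adjusted p 0.0217, the only leave-one-out fit in which Thbs1 passed.

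Thbs4 encodes thrombospondin-4, which unlike thrombospondin-1 and thrombospondin-2 assembles into pentamers, and which is known to be induced in loaded heart muscle. Thbs4 measured 8.25, 7.58 and 8.08 in TG hearts and 8.92, 8.43 and 8.49 in WT hearts on the log2 scale. The groups did not overlap, but TG replicate 2 lay well below the other TG hearts and WT replicate 1 well above the other WT hearts. The difference was -0.64 ± 0.19 (SE), with a 95% interval of -1.07 to -0.22, and it did not pass (limma adjusted p = 0.173). It ranged from -0.78 to -0.45 when single arrays were left out, and passed in none of those fits.

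Tnc encodes tenascin-C, a large matrix glycoprotein that loosens cell adhesion and appears at sites of injury and remodelling. In log2 units Tnc measured 6.55, 6.87 and 6.57 in TG hearts and 6.31, 6.09 and 6.19 in WT hearts. Every TG heart lay above every WT heart, with TG replicate 2 the highest. The difference was 0.47 ± 0.10 (SE), 1.38-fold higher, with a 95% interval of 0.24 to 0.70 and a limma adjusted p of 0.0864. Tnc was dim, brighter than only 37.4% of tested rows, where RMA values compress changes.

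**Figure D1:**
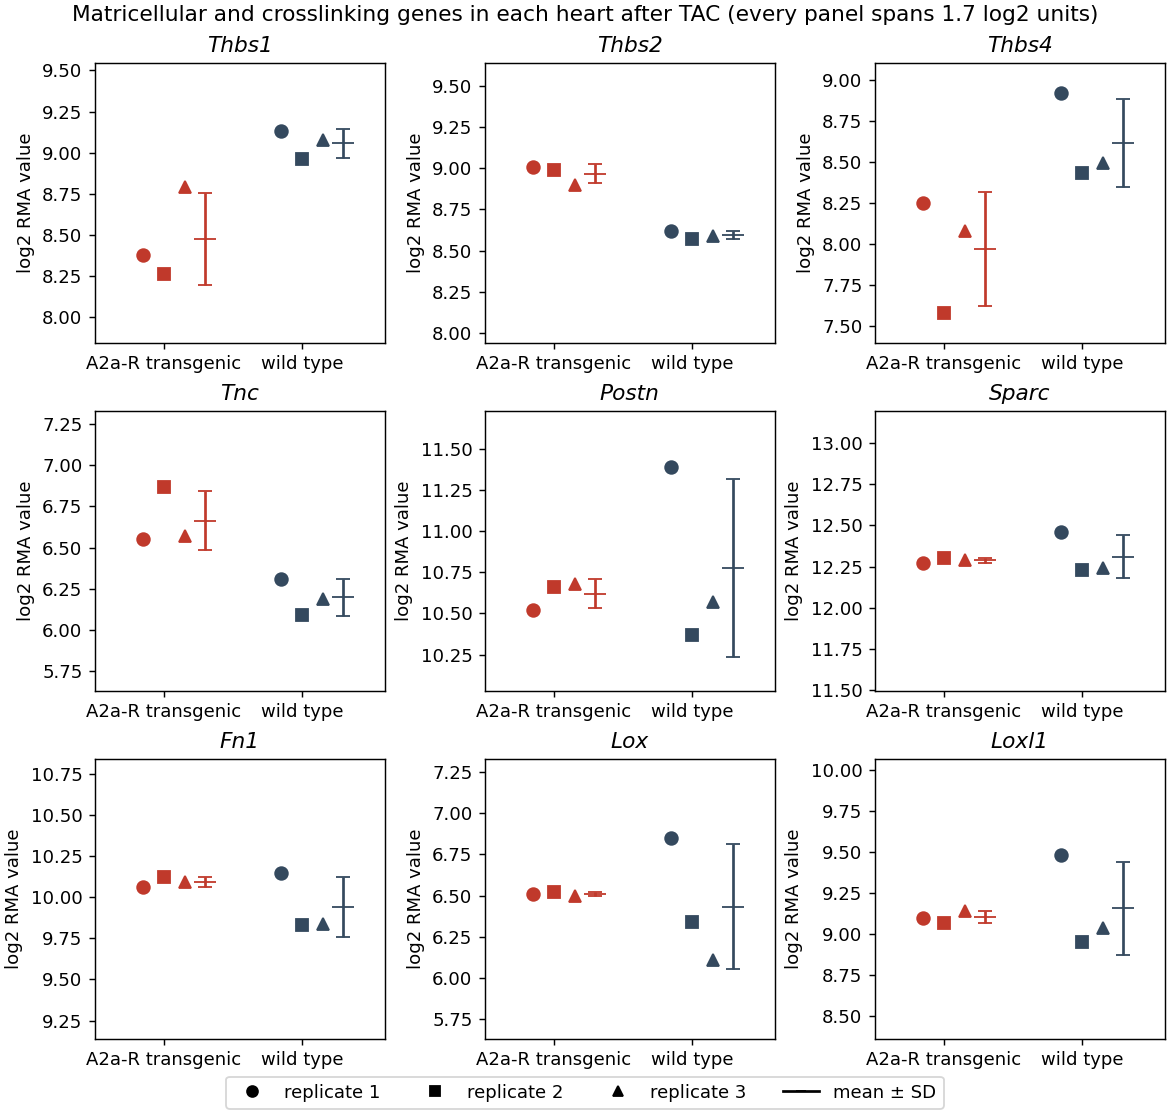
Log2 RMA values of the 9 measured genes in each heart, with 3 TG hearts left of 3 WT hearts in every panel; symbols mark the replicate, bars the mean ± SD, and every panel spans the same log2 range. The TG and WT values separate for Thbs1, Thbs2, Thbs4 and Tnc, and WT replicate 1 is the highest heart in the other 5 genes as well as in Thbs1 and Thbs4.

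The promoters of the members that separated the genotypes are shown for the 3 of them held in the RefSeq promoter table, Thbs2, Tnc and Thbs4. Each window runs from 250 bases before to 50 after an annotated gene start in build GRCm38.p6, 5′ to 3′ on the gene's strand, at chr17:14694213-14694512 (minus strand), chr4:64046966-64047265 (minus strand) and chr13:92794769-92795068 (minus strand). Tnc has a second listed start whose window overlaps this one. Capitals mark matches, on either strand, to letters known from the binding sites of SMAD proteins (CAGAC), TEAD factors (GGAATG) and the cyclic AMP element, CRE (TGACGT), to those of AP-1 sites (TGANTCA), and to the box motif TATAAA.
Thbs2: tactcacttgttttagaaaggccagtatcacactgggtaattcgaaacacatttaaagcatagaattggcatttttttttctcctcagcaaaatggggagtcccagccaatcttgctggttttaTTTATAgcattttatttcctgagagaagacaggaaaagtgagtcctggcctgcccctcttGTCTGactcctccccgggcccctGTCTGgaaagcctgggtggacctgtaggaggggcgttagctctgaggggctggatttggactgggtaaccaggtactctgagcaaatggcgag
Tnc: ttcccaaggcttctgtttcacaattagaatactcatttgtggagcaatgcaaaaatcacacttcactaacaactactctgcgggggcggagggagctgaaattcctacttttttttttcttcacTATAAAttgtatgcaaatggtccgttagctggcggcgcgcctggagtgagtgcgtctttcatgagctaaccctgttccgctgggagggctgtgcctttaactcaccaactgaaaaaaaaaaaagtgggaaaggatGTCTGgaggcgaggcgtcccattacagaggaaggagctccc
Thbs4: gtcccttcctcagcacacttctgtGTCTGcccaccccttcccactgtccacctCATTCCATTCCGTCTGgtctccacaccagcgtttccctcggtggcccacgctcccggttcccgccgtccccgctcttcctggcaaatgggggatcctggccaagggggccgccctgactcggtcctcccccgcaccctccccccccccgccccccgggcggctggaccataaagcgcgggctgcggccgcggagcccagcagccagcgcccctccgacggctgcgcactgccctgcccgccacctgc
The Thbs2 window held 2 SMAD matches and 1 box motif, and the Tnc window shown held 1 of each. At the second Tnc start, not shown, the window held 2 SMAD matches and 1 box motif. The Thbs4 window held 2 SMAD matches and 2 TEAD matches that overlap each other by a base. Over 32851 promoter windows of this length, 49.6% held the SMAD letters, 14.7% the TEAD letters and 13.6% the box motif. None of the 3 windows shown held the CRE letters (7.51% of the 32851 windows) or the AP-1 letters (7.81%). The Thbs4 window was richer in G and C, at 72%, than those of Thbs2 and Tnc, at 48.3% and 47.3%. A match says only that these letters occur in the window.

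In the remaining 5 members, Postn, Fn1, Sparc, Lox and Loxl1, the TG and WT values overlapped. Postn encodes periostin, a marker of activated fibroblasts that binds integrins and collagen. Postn had log2 values of 10.52, 10.66 and 10.68 in TG hearts and 11.39, 10.37 and 10.57 in WT hearts. WT replicate 1 exceeded the mean of the other WT hearts by 0.92, while the TG hearts lay within 0.16 of each other. The difference was -0.16 ± 0.23 (SE), with a 95% interval of -0.68 to 0.37 (limma adjusted p = 0.811). Without WT replicate 1 it was 0.15, with an interval of -0.06 to 0.36, so the direction for Postn rested on that heart.

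Fn1 encodes fibronectin, which cells assemble into fibrils that guide collagen deposition. Its log2 values were 10.06, 10.12 and 10.09 in TG hearts and 10.15, 9.83 and 9.84 in WT hearts. The TG hearts lay above WT replicates 2 and 3 and below WT replicate 1. The difference was 0.15 ± 0.09 (SE), with a limma adjusted p of 0.493. Without WT replicate 1 it was 0.26, with an interval of 0.12 to 0.39 and a limma adjusted p of 0.147.

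Sparc encodes a collagen-binding protein that takes part in procollagen processing, and its row was brighter than 99.04% of tested rows. Its log2 values were 12.27, 12.30 and 12.29 in TG hearts and 12.46, 12.23 and 12.24 in WT hearts. Apart from WT replicate 1, all hearts lay close together. The difference was -0.02 ± 0.07 (SE), with a 95% interval of -0.19 to 0.15 (limma adjusted p = 0.924).

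Lox encodes lysyl oxidase, the enzyme that starts collagen and elastin crosslinks. Its log2 values were 6.51, 6.52 and 6.50 in TG hearts and 6.85, 6.34 and 6.11 in WT hearts. The TG hearts were almost identical and lay inside the WT range, which spanned 0.74. The difference was 0.08 ± 0.16 (SE), with a limma adjusted p of 0.878, and it was 0.29 without WT replicate 1 and -0.09 without WT replicate 3.

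Loxl1 encodes a lysyl oxidase known above all for elastic fibres. Its log2 values were 9.10, 9.07 and 9.14 in TG hearts and 9.48, 8.95 and 9.04 in WT hearts. Again WT replicate 1 was the highest heart and the TG hearts lay between it and the other WT hearts. The difference was -0.05 ± 0.13 (SE), with a 95% interval of -0.34 to 0.24 (limma adjusted p = 0.892), and 0.11 without WT replicate 1.

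**Figure D2:**
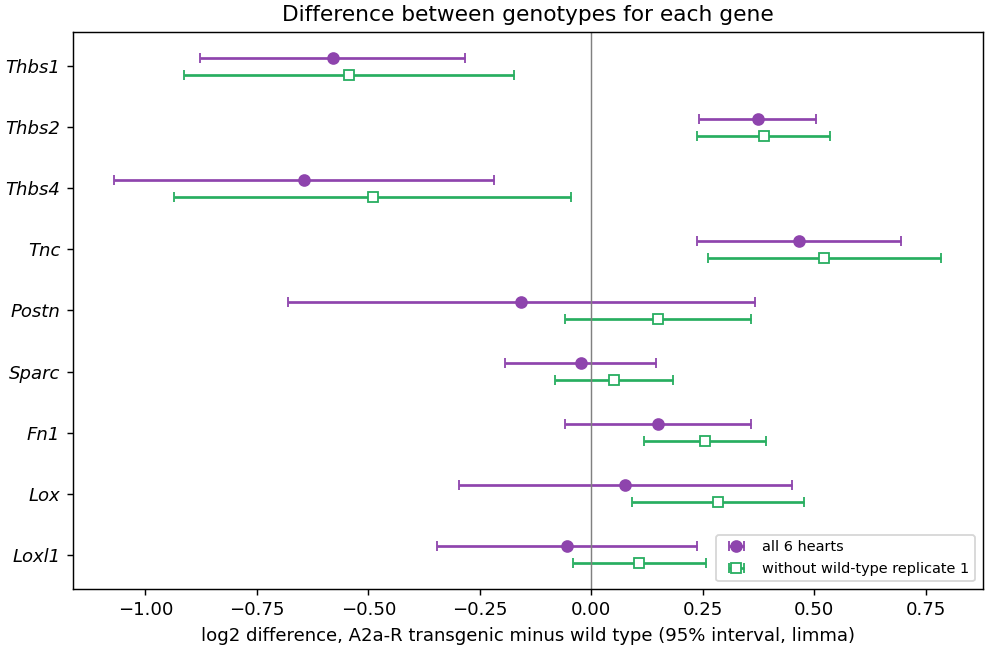
Log2 difference, TG minus WT, of each measured gene with its 95% interval from limma, with all 6 hearts (circles) and without WT replicate 1 (squares). Thbs1, Thbs2, Thbs4 and Tnc keep their direction without that heart, Postn, Sparc and Loxl1 change sign, and the intervals of Fn1 and Lox move above 0.

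WT replicate 1 was the highest WT heart in 9 of the 9 genes and the highest of all 6 hearts in 7 (all but Thbs2 and Tnc), whereas it was alone at the top of the WT hearts in 36.5% of all tested rows and of all 6 hearts in 19.9%. Without it, Fn1 differed by 0.26 and Lox by 0.29 (limma adjusted p = 0.147 and 0.212), and 0 members passed after adjustment. That heart was singled out by the values of these same genes. What set WT replicate 1 apart was not tested.

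**Figure D3:**
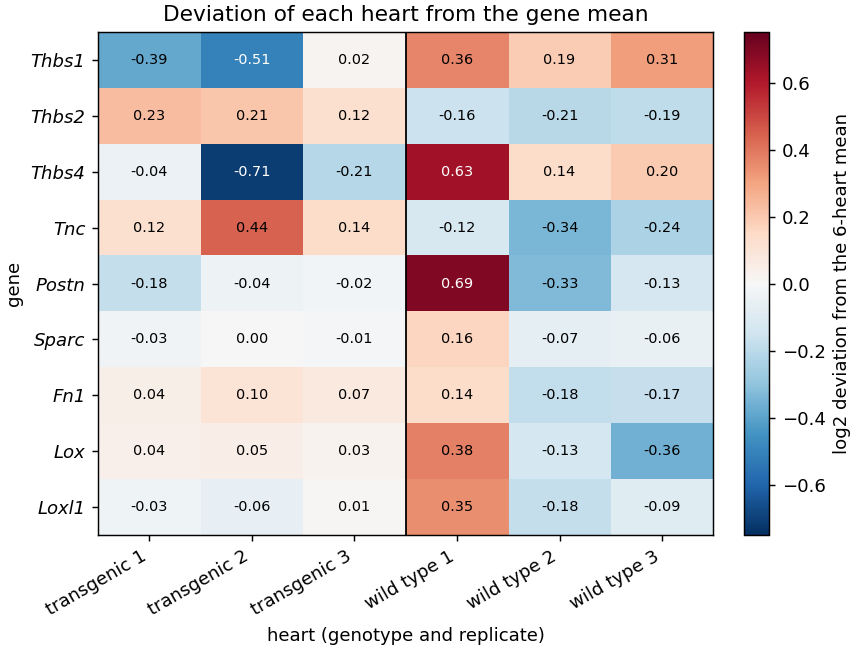
Deviation of every heart from the 6-heart mean of each gene on the log2 scale, with TG hearts left of the line and WT hearts right of it. WT replicate 1 has the highest WT value in every row, by up to 0.69 above the mean in Postn, and TG replicate 2 has the lowest value of Thbs1 and Thbs4 and the highest of Tnc.

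By root mean square distance of the deviations over the 6 hearts, the closest pairs among the 9 genes were Sparc with Fn1 (0.09 log2 units), Sparc with Loxl1 (0.09) and Thbs2 with Tnc (0.12). The distance is not scaled to a gene's spread, so genes that vary little lie close for that reason alone. Sparc had an SD of 0.08 over the 6 hearts, so its short distances do not show that it varies with Fn1 or Loxl1. This distance was also taken from the 3 genes of largest SD over the hearts to 19937 other genes. The genes nearest to Thbs4 were Nppb (0.08), which encodes brain natriuretic peptide, the sarcomere gene Myom2 (0.08) and Tnmd (0.09). Nearest to Thbs1 were Abat, Spry4 and Gcnt1 (0.09 each). Nearest to Postn was Mfap5, a microfibril gene (0.11), followed by Dmrtc1b and Olfr1065 (0.13 each). Dmrtc1b, Olfr1065 and Tnmd were dim, averaging 4.45, 4.01 and 5.60 in TG hearts and 4.59, 4.03 and 6.19 in WT hearts. The array medians were 6.83 to 6.89.

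Genes that act with these proteins were taken from 7 lists, in which 82 of 85 genes were measured. Of the 82, 0 rose and 4 fell, namely Itga9, Smoc2, Plod2 and P4ha2, and 78 did not pass in limma. Over all tested rows the shares that passed were 0.519% higher and 0.441% lower, and the 4 genes are 4.88% of the 82. These shares are a description only, because the lists were chosen with earlier results of these data known. The 82 are also the brightest row of each gene, whereas the shares cover dim rows too. Without the dimmest 40% of rows 309 rows were called lower, against 96 with all tested rows. At an unadjusted p below 0.05 there were 3 higher (3.66%) and 15 lower (18.3%), against 6.27% and 8.51% of all rows. The median difference over the 82 genes was -0.05, against -0.01 over all rows.

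Among 16 receptors, Itga9 fell and 15 did not pass. Itga9 encodes the integrin alpha9 subunit, which with beta1 binds tenascin-C and osteopontin. The log2 values of Itga9 were 8.82, 8.85 and 8.80 in TG hearts and 9.70, 9.54 and 9.72 in WT hearts, with no overlap and a gap far wider than the spread in either group. The fall was 0.83 ± 0.07 on the log2 scale (SE, difference -0.83), 1.78-fold lower, with a limma adjusted p of 0.00191. The call held without any 1 array (limma adjusted p 0.00655 to 0.0153). Cd44, a receptor for osteopontin and hyaluronan, averaged 7.54 ± 0.08 in TG hearts and 7.17 ± 0.13 in WT hearts (SD, n = 3 each; limma adjusted p = 0.092). The integrin gene Itga4 differed by -0.20 ± 0.07 (SE) and did not pass, and Itgb1, the shared beta1 chain, differed by 0.03.

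Among 14 genes of collagen modification and crosslinking, most of them for enzymes, Plod2 and P4ha2 fell and 12 did not pass. Plod2 encodes a lysyl hydroxylase that prepares collagen telopeptides for stable crosslinks. Plod2 had log2 values of 8.85, 8.92 and 8.90 in TG hearts and 9.24, 9.25 and 9.29 in WT hearts, a difference of -0.37 ± 0.05 (SE, limma adjusted p = 0.0235). P4ha2 encodes a catalytic subunit of prolyl 4-hydroxylase, which stabilises the collagen triple helix. It averaged 8.26 ± 0.07 in TG hearts and 8.62 ± 0.03 in WT hearts (SD; difference -0.36, limma adjusted p = 0.0374). Its paralog P4ha1 did not pass, at 9.23 ± 0.08 in TG hearts and 9.63 ± 0.10 in WT hearts (SD, limma adjusted p = 0.0532), but the 2 genes lay on either side of the threshold by little. P4ha1 passed in 5 alternatives, such as without the dimmest 40% of rows (0.0181) and with arrays centred on their medians (0.0471), and P4ha2 did not pass after further quantile normalization (limma adjusted p = 0.0532) or over all rows (0.0553). The lysyl hydroxylase genes Plod1 and Plod3 and the prolyl hydroxylase gene P4ha3 differed by 0.01, 0.02 and 0.12, so 2 of the 6 hydroxylases passed. Of the lysyl oxidases Lox, Loxl1, Loxl3 and Loxl4 did not pass either, with Loxl3 at -0.07 ± 0.10 and Loxl4 at 0.06 ± 0.11 (SE). Leaving out any 1 heart ended the calls of Plod2 (limma adjusted p of 0.0621 to 0.1) and P4ha2 (0.0645 to 0.154).

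Of 13 genes of the SPARC and CCN families, Smoc2 fell and 12 did not pass. Smoc2 encodes a secreted calcium-binding relative of Sparc. Its log2 values were 8.94, 8.94 and 8.96 in TG hearts and 9.50, 9.30 and 9.37 in WT hearts, a difference of -0.44 ± 0.07 (SE, limma adjusted p = 0.0243), and no leave-one-out fit kept the call (0.0558 to 0.0863). Spock2 differed by 0.29 ± 0.08 and Sparcl1 by -0.13 ± 0.06 (SE), neither passing, and Sparcl1 was at -0.078 without WT replicate 1. Of the 5 other thrombospondins and tenascins 0 passed in limma. Only 1, Comp, had an unadjusted p below 0.05, lower in TG, against 8.51% of all rows. Comp, which like Thbs4 forms pentamers, averaged 6.77 ± 0.19 in TG hearts and 7.29 ± 0.48 in WT hearts (SD). Its difference of -0.52 was -0.25 without WT replicate 1, at 7.83 the highest heart, while Tnxb differed by 0.12 and Thbs3 by 0.08.

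No gene passed among 10 elastic fibre and fibulin genes, 10 small leucine-rich proteoglycans, or 14 genes of TGF-beta ligands, their latency proteins and fibrillar collagens. At an unadjusted p below 0.05 these lists held 1 higher, 1 lower and 3 lower genes. Over all rows the shares were 6.27% higher and 8.51% lower. Fbln1 (fibulin-1), the first of these genes, differed by 0.27 ± 0.10, and Prelp, a collagen-binding proteoglycan, by -0.21 ± 0.08 (SE). Ltbp4, Tgfbi and Tgfb3 differed by -0.18, -0.18 and -0.26. Of the proteoglycans, Omd and Fmod were at -0.23 and -0.47, and of the elastic fibre genes Fbln2 and Mfap2 were at -0.16 and 0.06. Without WT replicate 1 the differences of Fmod, Omd, Prelp and Tgfb3 were smaller, at -0.20, -0.11, -0.13 and -0.16. Those of Ltbp4, Tgfbi and Fbln2 were slightly smaller, at -0.15, -0.14 and -0.14. By contrast, those of Fbln1 and Mfap2 were larger without that heart, at 0.39 and 0.11. WT replicate 1 had the highest mean of all 6 hearts in 7 of the 7 lists, but not the highest value of every gene. For the other thrombospondins and tenascins that mean was 7.19, against 7.13 in TG replicate 1. There WT replicate 1 was the highest heart for Comp, at 7.83, and the lowest for Tnxb, at 9.43.

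**Figure D4:**
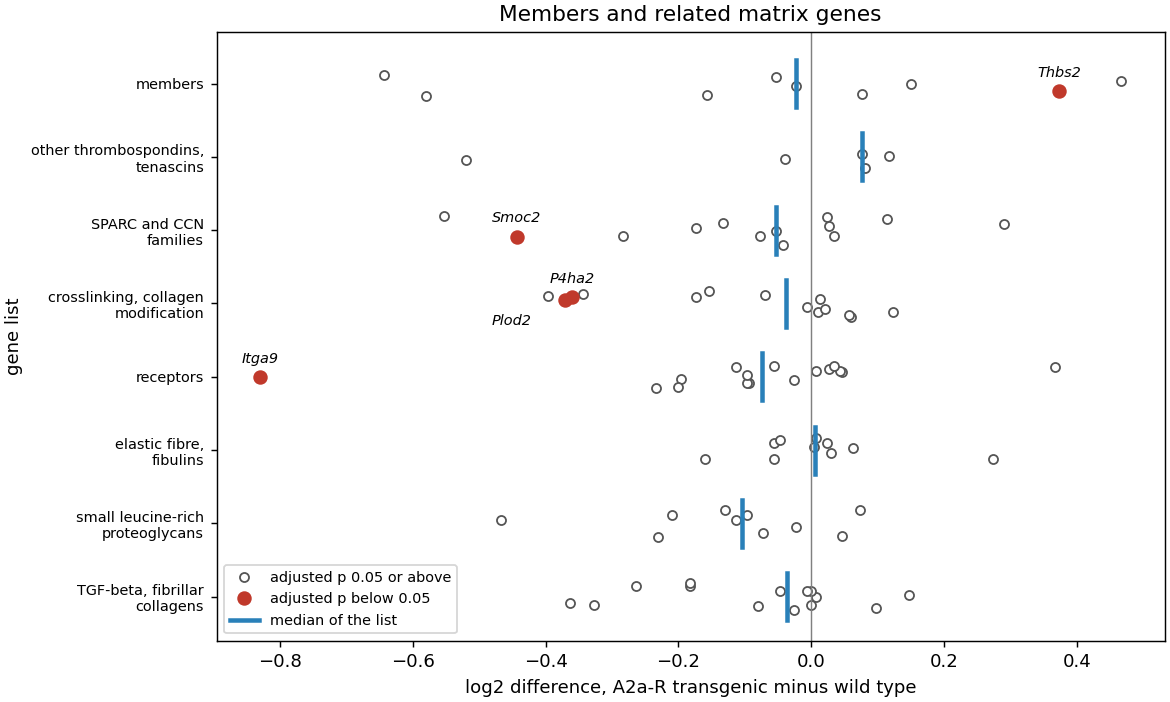
Log2 difference, TG minus WT, of the 9 measured members and of 82 related genes in 7 lists, with filled points for an adjusted p below 0.05 and bars for each list's median. Thbs2 is the single filled point right of 0, and Itga9, Smoc2, Plod2 and P4ha2 lie left of it.

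Markers of the cells that make or hold these proteins were set beside the results. Among 10 fibroblast markers 0 passed in limma (0 also at an unadjusted p below 0.05). Their summed linear level was 19137 to 19887 in TG hearts and 18904 to 21039 in WT hearts. That sum rests most on Dcn, also among the proteoglycans above, which averaged 13.25 in TG hearts and 13.32 in WT hearts. Of 9 myofibroblast and smooth muscle markers, Acta2 rose, with a difference of 0.73 ± 0.09 (SE) and a limma adjusted p of 0.0106, and 8 did not pass. Without WT replicate 1 or 3 the call of Acta2 was lost (up to 0.0594). The summed level of the 9 markers was 9215 to 9977 in TG hearts and 7731 to 8437 in WT hearts, but without Acta2 it was 6378 to 6673 in TG hearts and 6033 to 6720 in WT hearts, and the median difference was 0.04. All 12 macrophage markers had higher means in TG hearts, with a median difference of 0.34. At an unadjusted p below 0.05 there were 9 of 12, all higher, against 6.27% of all rows, and 1, Lgals3 (galectin-3), passed the adjusted test, at 0.61 ± 0.06 (SE, limma adjusted p = 0.00423). Their summed level was 7713 to 8446 in TG hearts and 5642 to 6359 in WT hearts. For 8 cardiomyocyte markers it was 100385 to 103748 in TG hearts and 99558 to 102638 in WT hearts. For 8 endothelial markers it was 11050 to 12150 in TG hearts and 11715 to 12281 in WT hearts, and for 4 platelet markers 605 to 916 in TG hearts and 890 to 1027 in WT hearts. Of these 3 lists 0 genes passed in limma. At an unadjusted p below 0.05 there was 1 of 8 cardiomyocyte markers, higher in TG, against 6.27% of all rows. Lower in TG were 1 of 8 endothelial and 2 of 4 platelet markers, against 8.51% of all rows. Array values have no true zero, so no marker can be called absent. The part of macrophages, muscle-like cells or platelets in the differences of the matrix genes was not tested. In RNA from heart tissue, fewer cells of a type and less RNA per cell cannot be told apart.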

How the data were processed

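RNA was measured in the hearts of 6 mice, 3 A2a-R transgenic and 3 wild type. The deposited values are log2 expression values that the authors made with RMA (background correction, quantile normalization and probe summary) and Partek, per the submitters' processing notes; the sources used here give no version, setting or genome build. RMA gives the arrays like distributions, so a global change in RNA is not visible, and it compresses changes of dim and of very bright genes. The value table has 28853 rows, of which 21789 carry exactly 1 gene symbol in the platform annotation of 2016, 1621 several and 5443 none; 0 symbols changed when 21698 were looked up in RefSeq GRCm38.p6. Rows with 1 symbol were tested, and for a gene the row of highest mean over the 6 arrays was used.

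Groups were compared with limma 3.58.1 in R 4.3.3 (lmFit and eBayes, no covariate), with Benjamini-Hochberg adjustment over the 21789 rows and a threshold of 0.05. Errors are SD over 3 hearts or the moderated SE (prior degrees of freedom 4.1, median SE 0.0731), and 6 arrays limit the precision. The code was first tested on simulated data with known changes. Named were all members, and the genes of each related list that passed plus up to 3 with the smallest p. The 3 nearest profiles of the 3 members of largest SD were named too. Itgb1, Loxl3, Loxl4, Plod1, Plod3, P4ha3, Acta2, Lgals3 and Dcn were named after their values were seen. The members and lists were chosen with earlier results of these data known. Summed levels are sums of 2 to the power of the log2 values. Loxl2, Fbn1 and Efemp2 had no row of their own. Alternatives were a replicate block, further quantile normalization, median centring, a filter on dim rows, another variance prior, array weights, all rows, the mean of a gene's rows, another threshold and leaving out each array.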

Additional observations from a re-analysis of the deposited data

How the results depend on the processing

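The 4 genes Thbs1, Thbs2, Thbs4 and Tnc kept their direction in every alternative in which they were tested. The number of members past the threshold, 1 with all arrays and rows, was 0 with the replicate block, 2 without the dimmest 40% of rows, 3 with a trended and robust variance prior, 3 at an adjusted p below 0.10, and 0 to 1 with single arrays left out. The filter on dim rows removes Tnc and Lox. Thbs1 passed at an unchanged difference of -0.58 without dim rows (limma adjusted p = 0.0411) and with the trended and robust prior (0.037), where Tnc passed too at 0.47 (0.0422). With single arrays left out the difference ran from -0.74 to -0.47 for Thbs1 and from 0.35 to 0.41 for Thbs2. The equal replicate numbers were not shown to pair the hearts: same-numbered hearts deviated together with r of 0.16, -0.01 and -0.10 over 21789 rows, and TG replicate 2 was closest to WT replicate 3 (0.23). With the replicate block Thbs2 stayed at 0.37 but did not pass (limma adjusted p = 0.0848). Nor did Smoc2, Plod2 and P4ha2 pass with it (0.0732, 0.0808 and 0.115). With single arrays left out the differences ran from -0.36 to 0.15 for Postn, from -0.063 to 0.052 for Sparc, from -0.16 to 0.11 for Loxl1 and from -0.085 to 0.285 for Lox; array weights gave 0.0082 for Sparc and 0.033 for Loxl1. The number of rows called, 209 (113 higher, 96 lower), was 97 with the replicate block, 493 without dim rows (184 higher, 309 lower), 579 with the trended and robust prior (240 higher, 339 lower), 476 at an adjusted p below 0.10, and 84 to 147 with single arrays left out. Causes of these shifts were not tested.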

Other observations

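CCN genes, matricellular relatives that respond to stretch, are given with other crosslinking partners, all chosen after their values were seen. Ccn1 and Ccn2 had the most negative differences of that family. Ccn5 and Ccn6 differed by -0.17 and -0.05. Ccn3 and Ccn4 were higher in TG, by 0.03 and 0.11. The Ccn4 values, below the array medians, barely missed overlapping, with the lowest TG heart at 5.66 and the highest WT heart at 5.65. Over all tested rows, values did not overlap in 7.73% (higher in TG) and 12.6% (lower). No CCN gene passed in limma. Ccn1 had log2 values of 10.33, 9.79 and 11.01 in TG hearts and 11.26, 10.95 and 10.58 in WT hearts, which overlap (difference -0.55 ± 0.29, SE). Ccn2, the connective tissue growth factor gene, averaged 11.64 ± 0.28 in TG hearts and 11.93 ± 0.34 in WT hearts (SD, n = 3 each). TG replicate 2 was the lowest heart for both, as it was for Thbs1 and Thbs4. Tgm2, a transglutaminase that crosslinks fibronectin and other matrix proteins, averaged 11.01 ± 0.06 in TG hearts and 11.18 ± 0.08 in WT hearts, without overlap and without passing in limma (adjusted p = 0.272). Col1a1 and Col1a2, whose products lysyl oxidases crosslink, had equal means in TG and WT hearts (9.39 in each group for Col1a1, 9.28 for Col1a2), and WT replicate 1 was the highest heart for both.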
